A study of Mus musculus with 2 samples.

Results

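Klf2, Klf4, Nos3, Piezo1 and Cav1, 5 genes through which endothelial cells register and answer the flow of blood, were followed in single cells of the mouse lung. They were matched by symbol in the deposited gene list and make up 5 of its 31053 genes. The study asked how the endothelium of the lung responds to melanoma cells arriving from the circulation. Wild-type C57BL/6 mice received phosphate-buffered saline (the control library) or 200000 B16-F10 cells each, a mouse melanoma line labelled with a green dye (the metastatic library), through the tail vein, and lungs were taken after 6 h. PECAM1-positive lung cells, pooled from 2 mice, were sorted into each library and sequenced with the 10x Genomics 3′ method, in which a unique molecular identifier (UMI) marks each captured RNA molecule. Each group held 1 library, so the spread between mice is unknown, the groups could not be tested against each other, and every interval given is a 95% interval of counting error only.

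Flowing blood drags on the vessel wall, and endothelial cells turn this shear stress into signals. The mechanically gated channel Piezo1 lets calcium in when the membrane is stretched, and caveolae, flask-shaped pits whose main coat protein is caveolin-1 (Cav1), gather signaling proteins at the surface. A kinase cascade through MEKK3 and ERK5 then activates MEF2 factors, which switch on the transcription factors Klf2 and Klf4. These keep the endothelium quiescent, anticoagulant and resistant to inflammation, in part by raising Nos3, the endothelial nitric oxide synthase, whose product relaxes vessels. Klf2 and Klf4 are also induced quickly by the stress of tissue digestion, together with immediate-early genes such as Jun and Fos.

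On the mouse genome (GRCm38, GENCODE M21 annotation) Klf2 (ENSMUSG00000055148) spans chr8:72319033-72321656 on the plus strand and Klf4 (ENSMUSG00000003032) chr4:55527143-55532466 on the minus strand. Nos3 (ENSMUSG00000028978) spans chr5:24364810-24384474 on the plus strand, Piezo1 (ENSMUSG00000014444) chr8:122481698-122551329 on the minus strand and Cav1 (ENSMUSG00000007655) chr6:17306335-17341452 on the plus strand. Nos3, Piezo1 and Cav1 are overlapped by annotated genes of the opposite strand that the files also list. Gm20388 covers all 69632 bases of Piezo1, and the antisense Gm15581 all 35118 bases of Cav1. Whether the counting used strand is not stated in the sources used here. A promoter entry was found for 4 of the 5 genes in RefSeq on GRCm38.p6. The stretches of Klf2 and Klf4 from 200 to 51 bases before the RefSeq start are shown because MEF2 factors lie upstream of both genes in the pathway, at chr8:72318862-72319011 on the plus strand and chr4:55532526-55532675 on the minus strand.
Klf2: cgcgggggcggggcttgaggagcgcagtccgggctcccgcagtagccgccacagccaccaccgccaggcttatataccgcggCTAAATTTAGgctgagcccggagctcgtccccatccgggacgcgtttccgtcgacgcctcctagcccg
Klf4: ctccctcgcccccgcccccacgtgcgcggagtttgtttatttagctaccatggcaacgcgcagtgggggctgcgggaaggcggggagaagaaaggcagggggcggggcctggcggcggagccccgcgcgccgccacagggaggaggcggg
The capitals mark a match to the MEF2 pattern at -118 to -109 in Klf2. The same search, on both strands, found 0 matches in the 250 bases before the starts of Klf4, Piezo1 and Cav1, and 959 of 32851 promoters in the table (2.92%) held one. CACCC or its reverse complement GGGTG, the letters that KLF factors bind, was found once each in Klf2 and Piezo1 and in 52.0% of all promoters. Such a match describes letters and shows no binding.

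The libraries held 67929614 (control) and 64733724 (metastatic) UMIs, and 7134 and 6466 barcodes with 1000 to 5000 detected genes counted as cells, with medians of 6272.5 and 6526.5 UMIs. Of these barcodes, 16 were called in both libraries, and no ratio of the 5 genes moved beyond its counting error without them. Barcodes with 11 to 50 UMIs, taken to hold RNA from outside cells, were shared more widely, with 15821 in both libraries, 62.0% of those of the control and 58.6% of those of the metastatic library. Cells were assigned to classes by UMIs of at least 2 markers of a class. General capillary cells, the cells that line most of the alveolar capillary and can renew it, numbered 5020 and 4519, and aerocytes, the large capillary cells apposed to the gas exchange surface, 1364 and 1086. Vein cells numbered 247 and 304 and artery cells 63 and 59, and 46 and 32 barcodes met several class rules and were set aside. All 5 endothelial markers (Pecam1, Cdh5, Cldn5, Tie1 and Erg) were detected in the general capillary cells of both libraries, 99.4% and 99.3% of which held at least 2, as the label of endothelial cells requires. General capillary cells also held RNA of other cells in unequal amounts. In counts per 1000000 UMIs (CPM), summed red cell markers were at 1959 and 824 CPM, epithelial markers at 1683 and 990.3, myeloid markers at 356 and 238, and platelet markers at 175 and 271 CPM, whereas 12 immediate-early genes summed to 15462 and 15771 CPM. The part of this RNA in the levels below was not tested, except where cells carrying it were left out.

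Klf2 was highest in vein cells of both libraries, and in each of the 4 classes its level was lower in the metastatic library. In general capillary cells of the control library it was at 2048 CPM (2032–2063), and in those of the metastatic library at 1922 CPM (1907–1938). In aerocytes it was at 2089.8 CPM (2063–2117) and 1834 CPM (1807–1862). The capillary classes thus lay close together within a library, while the metastatic library lay lower in both. In vein cells Klf2 was at 3599.6 CPM (3521–3679.7) and 3432 CPM (3362–3503), 1.76-fold and 1.79-fold above general capillary cells. In artery cells it was at 2630.4 CPM (2489–2778, 1297 UMIs) and 1873 CPM (1753–1999, 911 UMIs). Control arteries therefore ranked second, 1.28-fold above general capillary cells. Metastatic arteries, general capillary cells and aerocytes lay within 1.05-fold of each other, and the arteries could not be told apart from either capillary class. Metastatic aerocytes were lower than general capillary cells by a log2 ratio of -0.07 (-0.09 to -0.04). In the control library aerocytes were the higher, by 0.03 (0.01 to 0.05). Both intervals leave out the spread between cells, so the order of the capillary classes is not settled.

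The log2 ratio of the metastatic to the control library was -0.09 (-0.11 to -0.07) for Klf2 in general capillary cells, -0.19 (-0.22 to -0.16) in aerocytes and -0.07 (-0.11 to -0.03) in vein cells. In artery cells it was -0.49 (-0.61 to -0.37), a level 1.40-fold lower, and its difference from the ratio of general capillary cells was -0.40 (-0.52 to -0.28) on the log2 scale. With all cells of each class the ratio was negative in all 4, but it passed the fold limit set for naming a gene, a log2 ratio of 0.32 in either direction, in arteries alone. In aerocytes it reached -0.30 among cells with 4000 to 8000 UMIs. In veins it was -0.0123 without cells bearing markers of other types than red cells, and turned to 0.0161 among cells with 4000 to 8000 UMIs and to 0.0591 with classes assigned on cells thinned to 2000 UMIs, so that its direction depended on the cells counted. The artery value rested on few cells and on how they were chosen. It was -0.11 in the 32 and 27 artery cells with 4000 to 8000 UMIs, and reversed to 0.38 with classes from the thinned cells, which left 13 and 14. Artery cells of the metastatic library also differed in other RNA: lymphatic markers summed to 1480.3 CPM against 2.03 CPM in the control, from 2 cells with at least 2 such markers, mesenchymal markers to 30.8 against 769 CPM and myeloid markers to 275 against 24.3 CPM. Without the lymphatic cells the Klf2 ratio was -0.45, without cells bearing markers of any other type than red cells it was -0.34, and with cells bearing red cell markers left out as well it was -0.65, on 21 and 30 cells. General capillary markers were also present in the artery class, with at least 2 of 4 in 81.0% of control and 62.7% of metastatic cells. The other classes held them too, with at least 2 in 59.9% and 54.3% of vein cells and 55.6% and 54.4% of aerocytes.

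**Figure D1:**
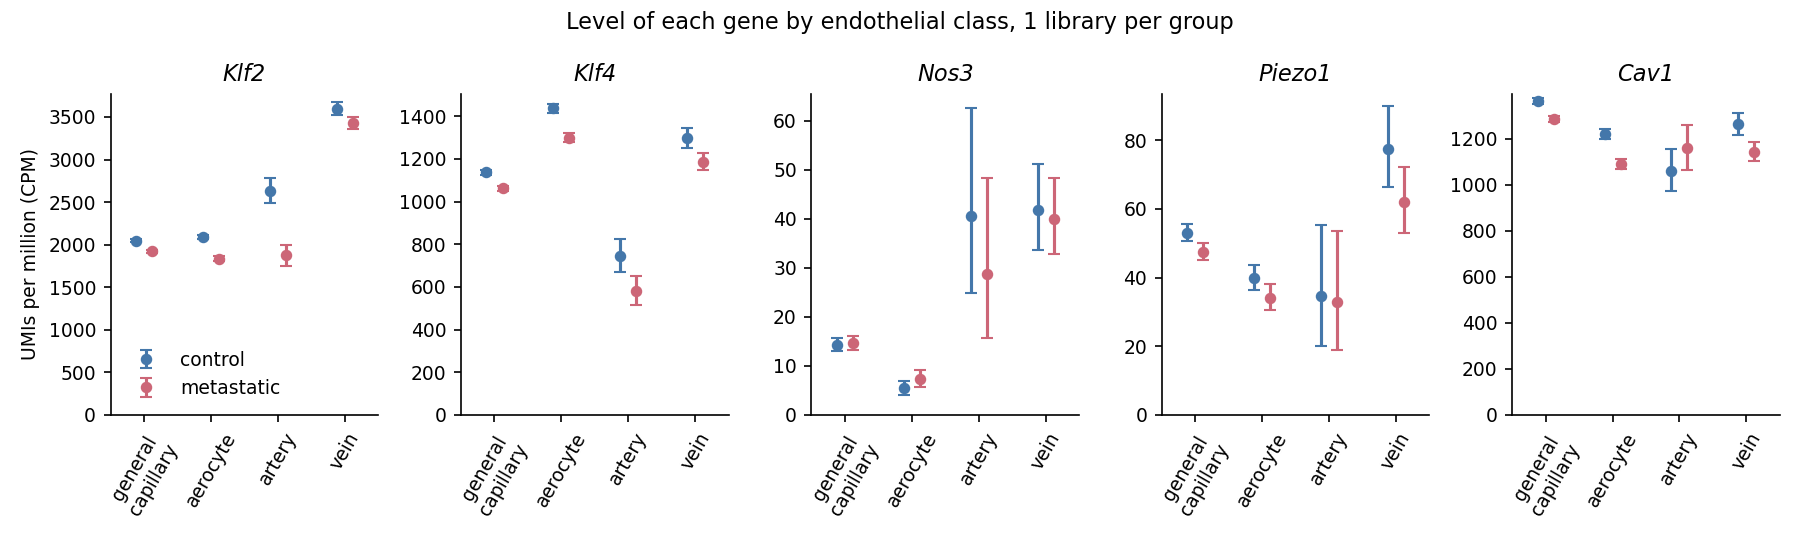
Level of Klf2, Klf4, Nos3, Piezo1 and Cav1 in CPM of each endothelial class, in the control (blue) and metastatic (red) library; points are sums over the cells of 1 library, bars are exact Poisson 95% intervals, and each panel has its own scale from 0. Klf2 and Piezo1 stood highest in veins, Klf4 in aerocytes and Cav1 in general capillary cells, and Nos3 in veins and arteries, which could not be ordered. The bars leave out the spread between cells, so the order of aerocytes, veins and general capillary cells for Klf4 is not settled. For Cav1 the place of veins and arteries is not settled either.

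Klf4, a factor closely related to Klf2 that acts on many of the same genes, had another order of classes. It was at 1437 CPM (1415–1459) in control and 1300.1 CPM (1277–1323) in metastatic aerocytes. Vein cells followed at 1296 CPM (1249–1345) and 1187 CPM (1146–1229), and general capillary cells at 1138 CPM (1127–1150.1) and 1061 CPM (1049.8–1073). Arteries were lowest, at 746 CPM (672–827, 368 UMIs) and 579.8 CPM (514–652, 282 UMIs). This order was the same in both libraries, and each neighbouring pair differed beyond counting error. General capillary cells were 1.53-fold and 1.83-fold above arteries. Aerocytes lay above veins by a log2 ratio of 0.15 (0.09 to 0.21) in control and 0.13 (0.08 to 0.19) in metastatic lungs. The intervals leave out the spread between cells, so the order of aerocytes, veins and general capillary cells is not settled. With all cells of each class, the metastatic level was the lower in every class, as for Klf2. The log2 ratio was -0.10 (-0.12 to -0.08) in general capillary cells, -0.14 (-0.18 to -0.11) in aerocytes, -0.13 (-0.20 to -0.05) in veins and -0.36 (-0.59 to -0.14) in arteries. Among these classes only the artery ratio passed the fold limit, and it ranged over the alternatives from -0.71, without cells bearing markers of other types, to 0.0523, among cells with 4000 to 8000 UMIs. Among cells of that depth the ratio was also of the opposite direction in veins, at 0.0476, and reached -0.28 in aerocytes.

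Beside these artery values stand those of the immediate-early genes. In artery cells, where 13.4% of all 1827 genes tested were lower past the fold limit, 5 of 12 such genes were, with Btg2 at -0.76, Fos at -0.68, Egr1 at -0.60, Zfp36 at -0.59 and Fosb at -0.52, and the 12 together summed to 9984 CPM in control and 8222 CPM in metastatic artery cells. In general capillary cells, where 4.66% of 3758 genes were lower, 0 of 12 were. The share of this group in the artery ratios of Klf2 and Klf4 was not tested.

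Nos3 was read at a low depth, and its level differed more between vessel types than between libraries. Vein cells held 41.7 CPM (33.6–51.1, 92 UMIs) in control and 40.0 CPM (32.8–48.3, 107 UMIs) in metastatic lungs. In artery cells it was at 40.6 CPM (24.8–62.6, 20 UMIs) and 28.8 CPM (15.7–48.3, 14 UMIs). General capillary cells held 14.2 CPM (13.0–15.6, 457 UMIs) and 14.7 CPM (13.3–16.1, 444 UMIs), and aerocytes 5.39 CPM (4.12–6.92, 61 UMIs) and 7.25 CPM (5.63–9.18, 68 UMIs). Veins and arteries could not be ordered, but vein cells were 2.93-fold and 2.73-fold above general capillary cells, and these 2.64-fold and 2.02-fold above aerocytes. The barcodes with 11 to 50 UMIs carried Nos3 at 10.7 CPM (4.29–21.97) and 6.86 CPM (2.23–16.02), which overlapped the levels of both capillary classes. Between the libraries the interval of the log2 ratio held 0 in all 4 classes, at 0.04 (-0.15 to 0.23) in general capillary cells, 0.43 (-0.09 to 0.95) in aerocytes, -0.49 (-1.59 to 0.56) in arteries and -0.06 (-0.48 to 0.36) in veins. A difference of up to about these bounds was not detectable at this depth.

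Piezo1 was also highest in veins. It was at 77.5 CPM (66.3–90.0, 171 UMIs) in control and 62.0 CPM (53.0–72.2, 166 UMIs) in metastatic vein cells, and at 53.0 CPM (50.5–55.6) and 47.6 CPM (45.1–50.1) in general capillary cells. Aerocytes held 39.9 CPM (36.3–43.8) and 34.1 CPM (30.5–38.0), and arteries 34.5 CPM (20.1–55.2, 17 UMIs) and 32.9 CPM (18.8–53.4, 16 UMIs). Vein cells were 1.46-fold and 1.30-fold above general capillary cells, and the lowest pair, aerocytes and arteries, could not be ordered. The log2 ratio was -0.16 (-0.26 to -0.05) in general capillary cells, -0.23 (-0.44 to -0.02) in aerocytes and -0.32 (-0.64 to -0.0047) in veins, and in arteries -0.07 (-1.15 to 1.01). The barcodes with 11 to 50 UMIs carried Piezo1 at 44.2 CPM (29.6–63.4) and 45.3 CPM (31.2–63.6). This level overlapped those of general capillary cells, aerocytes and arteries in both libraries, and that of veins in the metastatic library.

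Cav1 was the member with the flattest profile over the classes. General capillary cells were highest, at 1364 CPM (1351–1376) in control and 1287 CPM (1274–1299) in metastatic lungs. Veins were at 1262 CPM (1216–1310.2) and 1144 CPM (1104–1185), aerocytes at 1219.7 CPM (1199–1240.2) and 1091 CPM (1069.6–1112), and arteries at 1061 CPM (972–1156) and 1159.5 CPM (1066–1259). The highest and lowest class differed by 1.29-fold in the control and 1.18-fold in the metastatic library. Veins and aerocytes of the control, and arteries and veins of the metastatic library, could not be ordered. These intervals too leave out the spread between cells, so the place of veins and arteries in the order is not settled. The log2 ratio between the libraries was -0.08 (-0.10 to -0.06) in general capillary cells, -0.16 (-0.20 to -0.12) in aerocytes and -0.14 (-0.22 to -0.07) in veins. In arteries it was 0.13 (-0.05 to 0.30), and this ratio lay 0.21 (0.04 to 0.39) above that of general capillary cells. The artery ratio was -0.0769 without cells bearing markers of other types, red cells included.

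**Figure D2:**
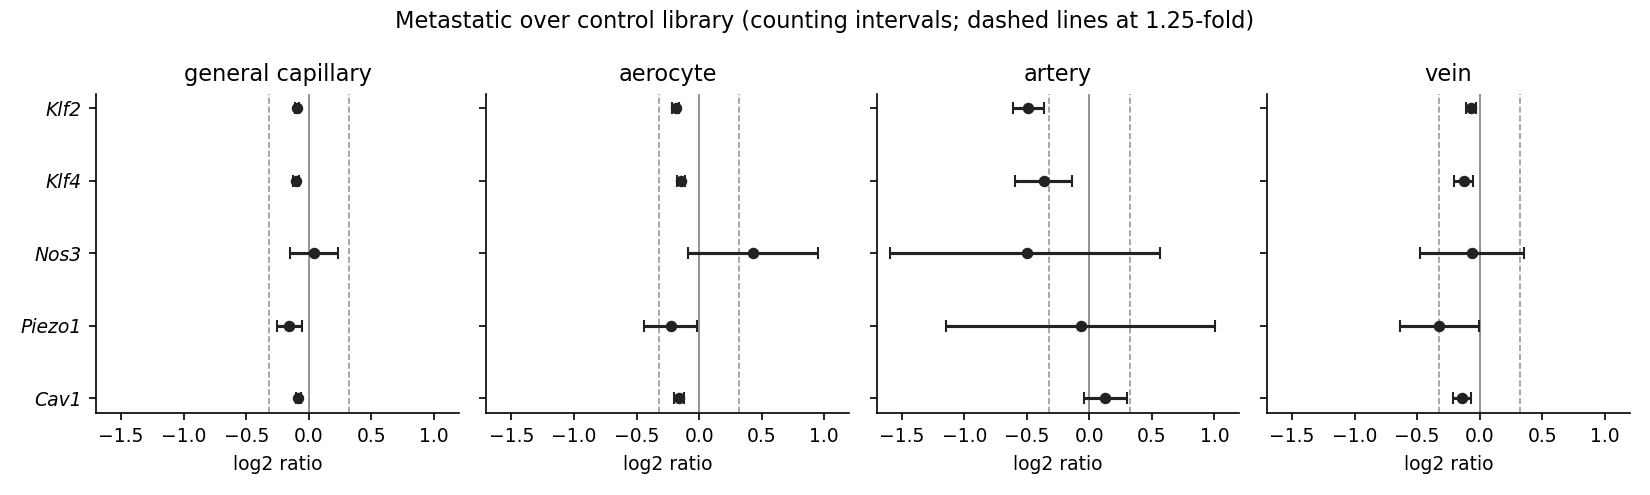
Log2 ratio of the metastatic to the control library for each gene (rows) in each class (panels); points are ratios of summed CPM, bars exact conditional binomial 95% intervals that cover counting error only, and dashed lines mark the fold limit of 0.32 in either direction. Klf2 at -0.49 and Klf4 at -0.36 in arteries were the values past it at 50 CPM and 100 UMIs.

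Read against all genes, the ratios of the members were small. In general capillary cells 3758 genes reached 50 CPM in either library and 100 UMIs over both, with a median log2 ratio of 0.02, and 4.66% were lower and 6.09% higher past the fold limit. Klf2, Klf4, Piezo1 and Cav1 reached this level, and 0 of these 4 passed it. They were lower together, but 20.5% of the 3758 genes had a lower ratio than Klf2, 19.0% than Klf4, 22.1% than Cav1 and 12.1% than Piezo1. Nos3, below the level, lay near the middle, with 58.2% of genes below it. In aerocytes 0 of 3 members passed the fold, where 4.38% of 3908 genes were lower and 4.45% higher. In veins it was 0 of 4, where 9.36% of 3719 genes were lower and 8.82% higher. In arteries 2 of 3 members, Klf2 and Klf4, were lower past the fold, where 13.4% of 1827 genes were lower and 16.8% higher. In general capillary cells the ratio of Klf2 ranged from -0.12 to -0.04 over 16 alternative settings, that of Klf4 from -0.13 to -0.06, that of Cav1 from -0.11 to -0.05 and that of Piezo1 from -0.20 to -0.14, without a change of sign.

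Whether fewer cells carried a gene, or cells carried less of it, was asked at equal depth by drawing 2000 UMIs from each cell, which left out 73 control and 58 metastatic general capillary cells as too shallow. Klf2 was then found in 92.3% (91.5–93.0) of control and 88.7% (87.7–89.6) of metastatic general capillary cells. Cells with 0 Klf2 UMIs formed 7.74% and 11.3%, and cells with 5 or more 36.7% and 34.3%. The metastatic library thus held more cells at the bottom of the range, and fewer at the top. The variance of the Klf2 UMIs per cell was 2.59 times their mean in the control and 2.90 times in the metastatic library, against 1 for counting error alone, so that Klf2 differed between cells of this class well beyond it. With cells bearing markers of other cell types left out (red cell markers not counted), the shares with a Klf2 UMI were 92.7% and 88.9%. In aerocytes cells with 0 Klf2 UMIs formed 5.91% and 11.1%, and in veins 0.813% and 5.28%. The vein values rested on few cells, since 244 of 246 control and 287 of 303 metastatic vein cells held a Klf2 UMI. Without the draw 100% and 99.3% of vein cells held one. Metastatic vein cells held more RNA of other types, with epithelial markers at 3641 CPM against 123 CPM in the control, myeloid markers at 614 against 32.2 CPM and red cell markers at 1347 against 442 CPM. The part of this RNA in the vein shares was not tested.

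Klf4 was found in 75.2% (73.9–76.4) of control and 71.9% (70.5–73.2) of metastatic general capillary cells at that depth, and Cav1 in 90.2% (89.3–91.0) and 88.6% (87.6–89.5). The variance of Klf4 was 2.49 times its mean in both libraries, and that of Cav1 1.32 and 1.31 times. Klf4, like Klf2, varied between cells far more than Cav1 did. Piezo1 was found in 9.32% (8.52–10.2) and 8.74% (7.93–9.61) of cells, and Nos3 in 2.81% (2.37–3.31) and 2.67% (2.21–3.18), and both sets of intervals overlapped. Their variance lay at 1.01 to 1.06 times the mean. With means of 0.0289 and 0.0271 UMIs per cell for Nos3 and 0.100 and 0.0939 for Piezo1, counting error makes up most of the variance. The ratio therefore lies near 1 even where cells differ, and it cannot tell how much Nos3 or Piezo1 differed between cells. Without the draw, at medians of 5950.5 and 6275 UMIs, Klf2 was found in 98.1% and 96.9%, Klf4 in 91.1% and 89.9%, Cav1 in 98.4% and 98.1%, Piezo1 in 26.3% and 25.9%, and Nos3 in 8.05% and 8.79% of cells.

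Lymphoid and myeloid barcodes without a UMI of Cdh5, Cldn5 or Gpihbp1 were set beside these shares. Their choice favors barcodes with little free endothelial RNA, so their shares may understate the background. In 30 control and 37 metastatic lymphoid cells drawn to 2000 UMIs, at medians of 4447.5 and 5150 UMIs, Cav1 was found in 13.3% and 8.11% and Klf4 in 26.7% and 21.6%. In myeloid cells the shares were 18.5% and 9.09% for Cav1 and 40.7% and 42.4% for Klf4. Klf2 was found in 90.0% and 89.2% of the lymphoid cells, a cell type that uses Klf2 itself for quiescence, and in 55.6% and 48.5% of 27 and 33 myeloid cells at medians of 10275 and 13354 UMIs. Nos3 was found in 0 of the 30 and 37 lymphoid cells, which allows a share of up to 11.6% and 9.49%, above the shares of general capillary cells. It was also found in 0 of the 27 and 33 myeloid cells, which allows up to 12.8% and 10.6%. Piezo1 was found in 6.67% (0.818–22.1) of the control and 0 of the metastatic lymphoid cells, and in 7.41% and 0% of myeloid cells. At this depth the shares of Nos3 and Piezo1 in general capillary cells could therefore not be set above those of other cells. Without the draw Nos3 was found in 3.33% (0.0844–17.2) and 0% (0–9.25) of lymphoid cells. In myeloid cells it was found in 0% (0–12.8) and 0% (0–10.6). Vein cells lay above these intervals, at 24.7% (19.4–30.6) and 24.0% (19.3–29.2), with medians of 8422 and 8157 UMIs.

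**Figure D3:**
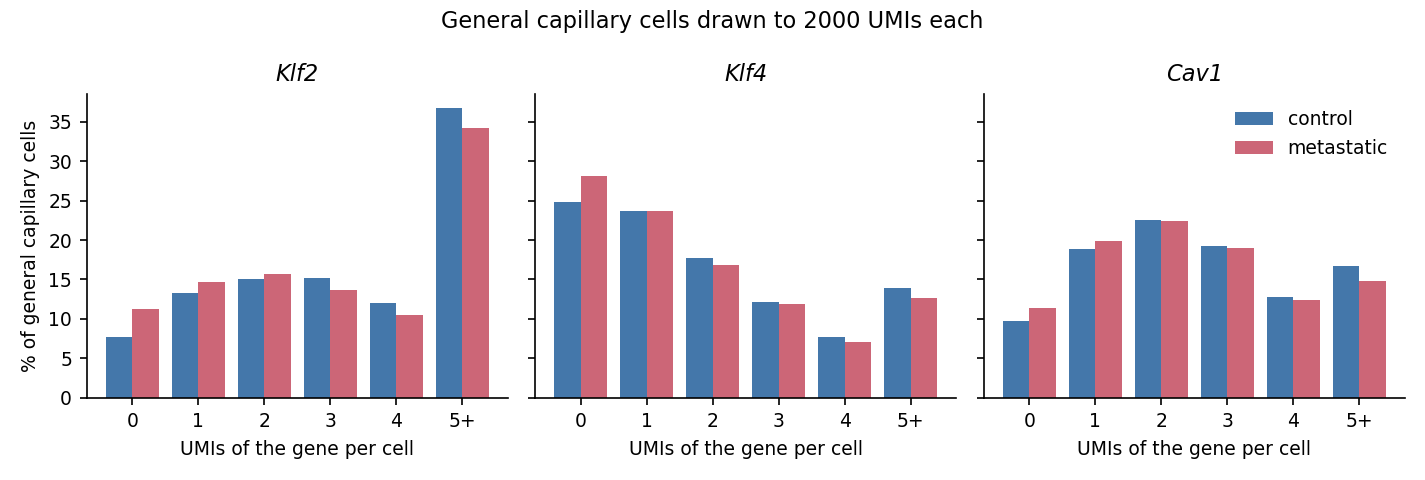
Share of general capillary cells (percent) by the number of Klf2, Klf4 or Cav1 UMIs among 2000 UMIs drawn from each of 4947 control (blue) and 4461 metastatic (red) cells. The bar at 0 Klf2 UMIs stands at 7.74% for control and 11.3% for metastatic cells.

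The members were next compared within single cells. Among the drawn cells, Klf4 was found in 76.3% (75.1–77.5) of control cells with a Klf2 UMI and in 61.4% (56.3–66.3) of those without. In the metastatic library these shares were 74.5% (73.1–75.9) and 51.2% (46.7–55.6). Cav1 was found in 90.6% (89.7–91.4) of control cells with and 85.9% (82.0–89.2) of those without a Klf2 UMI, and in 90.0% (89.0–90.9) and 78.0% (74.1–81.5) of the metastatic ones. Both genes were thus found more often where Klf2 was found. Nos3 was found in 2.81% of control cells with and 2.87% of those without a Klf2 UMI, and Piezo1 in 9.29% and 9.66%, and these intervals overlapped, as they did in the metastatic library. Across the 9539 cells of both libraries, the mean over the libraries of Pearson's r with Klf2 was highest for Klf4 (0.36), followed by Jun (0.33) and Ramp2 (0.28), among 8315 genes. For Klf4 it was highest for the immediate-early genes Fos (0.45), Egr1 (0.44) and Junb (0.43), and for Cav1 for Ramp2 (0.27), Clec14a (0.27) and Ptprb (0.26). Cells of a library share its depth and free RNA, so these values are descriptions. The highest values were 0.0663 for Nos3 (Cxcl12, then Nav1 and Ltbp4) and 0.0948 for Piezo1 (Sema3c, then Cd93 and Itga1), too weak to be read. Over the 8 sums of a class in a library, which share their 2 libraries, r was highest with Mfge8 (0.99), Igfbp5 (0.99) and Cox6c (0.98) for Klf2, with Rtl8a, Ppp1r21 and Tspan17 (0.99 to 0.98) for Klf4, with Rpl7, Rpl36a and Jam2 (0.99) for Nos3, with Klhl5, Arl5a and Nkd2 (0.96) for Piezo1 and with Arhgef26, Ifitm10 and Sesn1 (0.92 to 0.91) for Cav1.

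To see what else separated cells of low and high Klf2, general capillary cells were sorted by their Klf2 UMIs in a separate draw of 2000 UMIs, and all genes were then measured in the UMIs not drawn. In the control library 384 cells held 0, 2745 held 1 to 4 and 1818 held 5 or more Klf2 UMIs, and in the metastatic library 516, 2424 and 1521. Klf4 was higher at each step of Klf2, from 671 to 1031 to 1431 CPM in control and from 635 to 950.1 to 1412 CPM in metastatic cells. Cav1 did so over a narrower range, from 1189 to 1348 to 1435 CPM and from 1073 to 1305 to 1343 CPM. Thbd, which encodes the anticoagulant thrombomodulin and is induced by Klf2, was at 944, 1204 and 1357 CPM in the control and at 671, 899.6 and 1067 CPM in the metastatic library. Cdh5, the adhesion protein of endothelial junctions, differed less and followed no steady order, at 1429, 1613 and 1578 CPM and at 1593, 1639 and 1588 CPM. Jun was at 2805, 3703 and 4386 CPM and at 2824, 3654 and 4707 CPM, so that an immediate-early gene went with Klf2 as well. Piezo1 was at 50.2, 54.5 and 55.5 CPM and at 51.1, 45.5 and 51.5 CPM, and its intervals overlapped throughout. Nos3 was at 5.14 (2.35–9.75), 14.7 and 14.9 CPM in the control, the first on 9 UMIs, and at 19.4 (14.2–25.8), 14.3 and 15.2 CPM in the metastatic library, so the libraries did not share a direction.

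Cells with little Klf2 also carried more epithelial and myeloid RNA. In the control library epithelial markers summed to 20973, 805 and 139 CPM over cells with 0, 1 to 4 and 5 or more Klf2 UMIs, and in the metastatic library to 5438, 766 and 565 CPM. Myeloid markers summed to 3176, 226 and 139.7 CPM and to 1068, 172 and 167 CPM. Red cell markers went the same way in the control, at 4956, 2447 and 1245 CPM, but not in the metastatic library, at 259.6, 1401 and 302 CPM, and lymphatic markers were highest in cells with 5 or more Klf2 UMIs, at 43.6 and 18.3 CPM. With cells bearing markers of other types left out, red cell markers not counted, control cells with 0 Klf2 UMIs still held red cell RNA at 7200.04 CPM, against 1379 CPM at 5 or more. In these cells the log2 ratio of cells with 0 to cells with 5 or more Klf2 UMIs was -0.997 in the control and -1.13 in the metastatic library for Klf4, and at -0.28 and -0.58 for Thbd. For Cav1 it was -0.04 (-0.11 to 0.04) in the control, an interval that held 0, and -0.25 in the metastatic library. For Cdh5 it was 0.09 (0.02 to 0.16) in the control and 0.06 in the metastatic library. With all cells the control value of Cdh5 was -0.14 (-0.21 to -0.08), so its direction depended on the cells counted.

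Inhbb, which encodes a subunit of activin and was used in the study as a marker of reactive capillary cells, stood on the opposite side. It was at 125 (112–140.2), 28.4 and 10.2 CPM in metastatic cells with 0, 1 to 4 and 5 or more Klf2 UMIs, 12.3-fold higher in the first than in the last. In the control it was at 12.6 (7.87–19.0), 5.38 and 3.47 CPM on 22, 66 and 28 UMIs, 3.61-fold higher. These log2 ratios, 3.62 and 1.85, were 3.55 and 1.89 with the same cells left out. Sorted the other way, by Inhbb, metastatic Klf2 was at 1996 CPM (1979–2013) in 4181 cells with 0 Inhbb UMIs, at 1306 CPM (1248–1365) in 186 cells with 1 and at 1056 CPM (1000.2–1114) in 152 cells with 2 or more. Klf4 was at 1095, 774 and 666 CPM, Cav1 at 1318, 1119.7 and 803 CPM and Thbd at 968, 685 and 474 CPM in the same cells. Each of these 4 genes was thus lower where Inhbb was higher. Inhbb was counted over all UMIs of a cell, without a draw to equal depth, so deeper cells were more likely to show it. The part of depth in these levels was not tested. Nos3, at 14.5, 11.3 and 21.3 CPM, and Piezo1, at 48.0, 40.7 and 46.5 CPM, showed no order beyond counting error. Cdh5, at 1603, 1506 and 1630.2 CPM, was no lower in cells with 2 or more Inhbb UMIs than in cells with 0.

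Cells with an Inhbb UMI were rare in the control, 88 with 1 and 28 with 2 or more. Klf2 was at 2055 CPM in control cells with 0 Inhbb UMIs, at 1686 CPM (1589–1787) in those with 1 and at 2034 CPM (1849–2232) in those with 2 or more, and Klf4 at 1145, 843 and 1051 CPM. The lower level with 1 UMI was therefore not seen with 2 or more. The latter were only 28 cells and the intervals leave out the spread between cells, so this contrast is not settled. Compared with cells lacking Inhbb, all cells with it had a log2 ratio for Klf2 of -0.21 (-0.29 to -0.14) in the control and -0.74 (-0.80 to -0.69) in the metastatic library, for Klf4 of -0.36 and -0.60, and for Cav1 of -0.04 and -0.44. Jun, at -0.31 and -0.29, and Fos, at -0.29 and -0.27, were lower in the cells with Inhbb of both libraries, by amounts whose intervals overlapped. Epithelial markers summed to 5166 CPM in control and 3009.8 CPM in metastatic cells with Inhbb, against 1584 and 787 CPM without, but to 105 and 89.9 CPM in cells with 2 or more Inhbb UMIs. With cells bearing markers of other types than red cells left out, the Klf2 ratio was -0.11 in the control and -0.74 in the metastatic library, and that of Klf4 -0.41 and -0.51. When every cell with an Inhbb UMI was left out, the ratio of the metastatic to the control library in general capillary cells was -0.0424 for Klf2, -0.0644 for Klf4 and -0.0503 for Cav1, nearer 0 than with all cells and of the same sign. Cells with Inhbb numbered 116 in the control and 338 in the metastatic library, where they were lower in these genes. The direction of this move was therefore fixed beforehand, and it is no separate result.

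**Figure D4:**
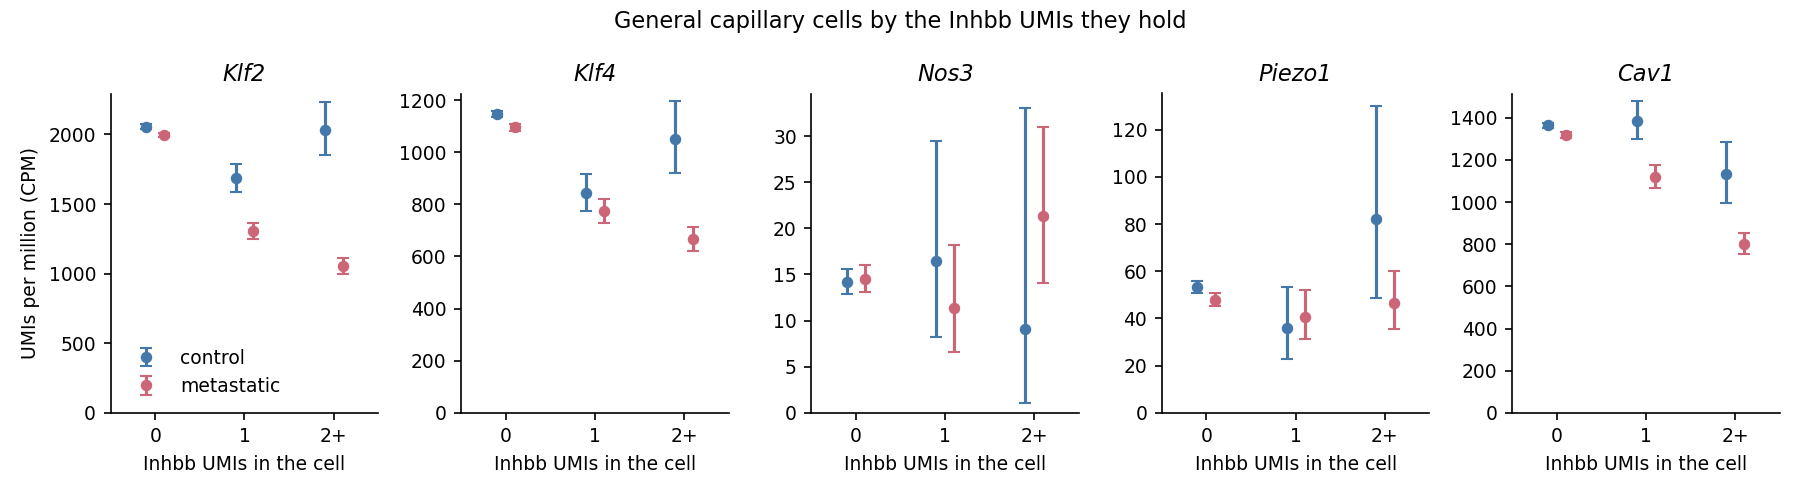
Level of each gene (CPM) in general capillary cells with 0, 1 or 2 and more Inhbb UMIs, control library in blue and metastatic library in red; bars are exact Poisson 95% intervals and the axes start at 0. In the metastatic library Klf2 was at 1996, 1306 and 1056 CPM, while Nos3 and Piezo1 showed no order beyond their intervals.

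The rest of the pathway was read from lists of related genes in general capillary cells, over genes with at least 20 UMIs in both libraries together. Of 13613 such genes 9.59% were lower and 14.6% higher past the fold limit, with a median log2 ratio of 0.02, and each list stands beside these values. Of 14 further sensors of flow and pressure, 13 were measured, 3 were higher and 1 lower, with a median of 0.01. Kdr, the main VEGF receptor and part of the junctional flow sensor, was at 232 and 372 CPM in the control and metastatic libraries (log2 ratio 0.69), and the integrin subunit Itga5 at 45.4 and 64.7 CPM (0.51). Plxnd1 passed the fold below 50 CPM (0.96), and Trpv4, the gene that was lower, rested on 85 and 63 UMIs. Cdh5, the highest of the list at 1588 and 1599 CPM, and Piezo2, a channel related to Piezo1, at 75.7 and 81.4 CPM, were close to equal in the libraries.

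The MEKK3, ERK5 and MEF2 cascade with the CCM complex that restrains it was even flatter. Of 11 genes, all measured, 0 passed the fold and the median was -0.05. Mef2a, the highest, was at 297 and 331 CPM (0.16). Of 13 genes raised by Klf2 or laminar flow, 12 were measured, with a median of -0.06, and they went both ways. Gja4, which encodes a gap junction protein, was at 124 and 209.7 CPM (0.76) and Eng, the co-receptor endoglin, at 692 and 913 CPM (0.40), whereas Thbd, the highest of the list, was at 1245 and 934 CPM (-0.42). Cd59a was lower (-0.70) on 76 and 44 UMIs.

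Genes that Klf2 or laminar flow lowers had a median of 0.32, with 4 of 7 measured genes higher and 1 lower, and of 0.59 with no minimum of UMIs. Edn1, the vasoconstrictor endothelin-1, was at 288 and 360.1 CPM, at the fold limit itself (0.32), and gave the median. Vcam1, a leukocyte adhesion molecule, was at 9.63 and 17.5 CPM (0.86), and Sele, E-selectin, was found with 12 and 268 UMIs. Both Vcam1 and Sele lay below 50 CPM in each library. Ace, the angiotensin-converting enzyme and highest of the list, was at 1231 and 1069.7 CPM (-0.20), and F3 was lower on 22 and 11 UMIs.

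Partners and regulators of nitric oxide synthase had a median of 0.26, with 4 of 14 genes higher and 1 lower. Ddah1 and Ddah2, which break down an inhibitor of the enzyme, were at 38.3 and 72.5 CPM (0.92) and at 242 and 352 CPM (0.54). Hsp90aa1, a chaperone that binds the enzyme, was at 269.7 and 339 CPM (0.33), and Hsp90ab1, the highest, at 1367 and 1636 CPM (0.26). Slc7a1, which imports arginine, was higher (0.49) below 50 CPM, and Arg2, which consumes it, lower on 30 and 8 UMIs. Nos3 itself, at 14.2 and 14.7 CPM, had a ratio whose interval held 0. Around Cav1, the caveola genes had a median of 0.00 with 1 of 9 measured genes higher (Pacsin3, on 12 and 17 UMIs) and 0 lower. Cavin2, the highest, was at 2540.1 and 2044 CPM (-0.31), just inside the fold.

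Among 15 other Klf genes 11 were measured, 4 were lower and 1 higher past the fold, with a median of -0.17. Klf9, a factor induced by glucocorticoids and the highest of the list, was at 1028 and 632 CPM (-0.70, -0.73 to -0.68), and Klf13 at 431 and 301 CPM (-0.52). Both were lower in each class, Klf9 by log2 ratios of -0.74 in aerocytes, -0.60 in arteries and -0.44 in veins, and Klf13 by -0.39, -0.41 and -0.32. Klf15 (-0.87) lay below 50 CPM, Klf5 was lower on 54 and 33 UMIs, and Klf12 was higher (0.34) below 50 CPM. The ratios of Klf2 and Klf4 in general capillary cells were thus closer to 0 than those of Klf9 and Klf13. Of the 12 immediate-early genes 1 was higher, Atf3 at 427 and 609 CPM (0.51), and 0 were lower, with a median of -0.01. Jun, the highest, was at 3881 and 3908 CPM (0.01).

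**Figure D5:**
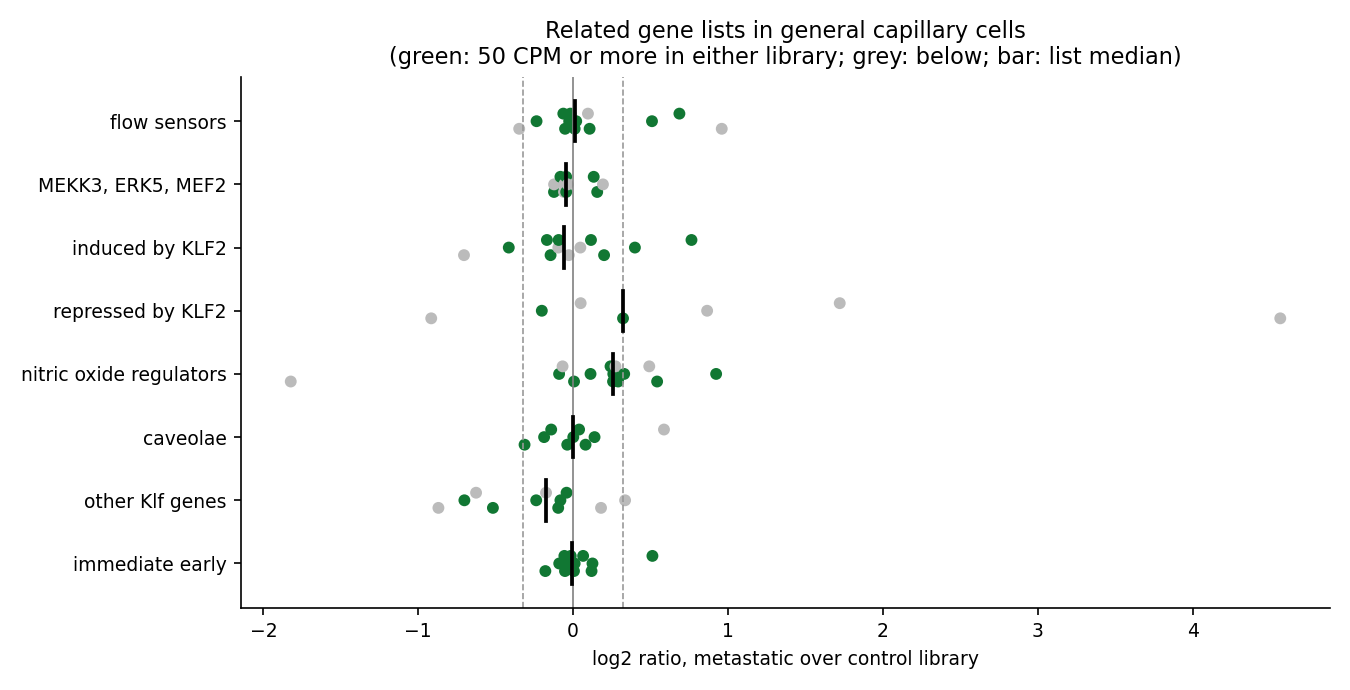
Log2 ratio of the metastatic to the control library in general capillary cells for each gene of 8 related lists with at least 20 UMIs; green genes reached 50 CPM in either library, grey genes did not, black bars are list medians and dashed lines mark the fold limit of 0.32 in either direction. The list medians ran from -0.17 for other Klf genes to 0.32 for genes lowered by Klf2.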

How the data were processed

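Per the labels, PECAM1-positive lung cells were sequenced with the Chromium Single Cell 3′ kit. The deposited values are raw UMI counts per gene and barcode, which the authors made with Cell Ranger on mm10 (3.1.0 per the file headers), without cell calling, filtering or normalization. Which annotation release was counted is not given in the sources used here. Totals were 67929614 and 64733724 UMIs.

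The 5 genes, the related lists and the class markers were chosen with earlier results of these data known. Barcodes with 1000 to 5000 genes and under 20% mitochondrial UMIs were kept. A cell joined the aerocyte (Ednrb, Fibin, Tbx2), vein (Slc6a2, Car8, Bst1) or artery (Gja5, Bmx, Fbln5) class with UMIs of 2 or more of its markers, and the general capillary class with 2 or more of Gpihbp1, Aplnr, Kit and Lpl and none of the other rules met. Doublets were kept, and removal of the highest scores (407 and 334 barcodes) was an alternative. UMIs were summed per library and class and scaled to CPM, with exact Poisson intervals. Ratios carry exact conditional binomial and shares Clopper-Pearson intervals, all at 95%. The fold limit was a log2 ratio of 0.32, among genes with 50 CPM and 100 UMIs, or 20 UMIs for lists. Named were the 5 members, list genes past the fold at 50 CPM (at most 4 per direction), the highest gene of each list and the 3 genes most like each member by Pearson's r. Other list genes past the fold, and the genes set beside Klf2 and Inhbb, were chosen after their values were seen, and 1 such list gene is not reported here. Intervals were tested on simulated data. Python 3.11.15, numpy 2.4.6, scipy 1.17.1, pandas 2.3.3 and scanpy 1.11.5 were used.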

Additional observations from a re-analysis of the deposited data

Results flagged for a closer look

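In artery cells the log2 ratio of Nos3 was negative and in general capillary cells positive, a difference of -0.54 on the log2 scale that rested on 20 and 14 artery UMIs. In vein cells it was negative as well, a difference from general capillary cells of -0.10. The ratio of Cav1 was positive in artery cells and negative in general capillary cells, a difference of 0.21, but the artery ratio was -0.0769 without cells bearing markers of other types, red cells included. Each group held 1 library, so the direction of each stands on a single pair of libraries and these differences were not tested. Barcodes with 11 to 50 UMIs, which enter no comparison between the classes, carried Klf2 at 646 CPM (589–708) in the metastatic library, above the 436 CPM (387–489) of the control library. In the same barcodes Klf4 was at 290 and 273 CPM and Cav1 at 347 and 280.3 CPM. Since most of these barcodes fell in this range in both libraries, the profiles are not independent of each other.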

How the results depend on the processing

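The alternatives that leave out cells with lymphatic markers, an Inhbb UMI, shared barcodes or markers of other types without counting red cell markers were chosen after seeing the data, and the cause of each change below was not tested. In general capillary cells the direction was kept in 16 of 16 alternatives for Klf2, Klf4, Piezo1 and Cav1 and in 15 of 16 for Nos3 (-0.01 to 0.10). The log2 ratios that moved beyond counting error were, under TMM scaling, -0.12 for Klf2, -0.13 for Klf4 and -0.11 for Cav1. In cells with 4000 to 8000 UMIs they were -0.0722 for Klf2 and -0.13 for Klf4, with cells weighted equally -0.0729 for Klf2, and without any UMI of the other class markers -0.13 for Klf4. Without cells with an Inhbb UMI they were -0.0424 for Klf2, -0.0644 for Klf4 and -0.0503 for Cav1. Without cells of other types Cav1 was at -0.0511, and without those of other types than red cells Klf4 was at -0.13 and Cav1 at -0.0641. In the smaller classes some directions reversed. With classes from cells thinned to 2000 UMIs, Klf2 was at 0.38 in arteries and 0.0591 in veins and Cav1 at 0.00881 in veins. In cells with 4000 to 8000 UMIs, Klf2 was at 0.0161 in veins and Klf4 at 0.0523 in arteries and 0.0476 in veins. Without cells of other types, Piezo1 was at 0.0493 in aerocytes and Cav1 at -0.0769 in arteries. The share of cells with a Klf2 UMI differed by -3.56 percentage points at 2000 UMIs, -3.34 at 1000 and -1.22 without a draw, and that of Klf4 by -3.27, -4.46 and -1.17. For Cav1 it was -1.60, -3.27 and -0.27, and for Nos3 -0.14, -0.20 and 0.74. With no minimum of UMIs the median of the genes lowered by Klf2 was 0.59. TMM scaling shifted the artery ratios by 0.05. Subtraction of free RNA, planned as an alternative, could give no value, since the share estimated from 7 genes ran from 27.3% to 292%. No paired analysis was possible because each group holds 1 library. The depth limits Nos3 in every class and Piezo1 in arteries.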
